A study of Arabidopsis thaliana with 30 samples.

Results

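The genes described here were higher in Arabidopsis seedlings after 3 h of added far-red light, and this held both in the wild type and in pifq, a quadruple mutant of the PIF1, PIF3, PIF4 and PIF5 genes. A probe set (the group of array probes that reads 1 transcript) was taken as a member when its group mean after 3 h was at least 1 log2 unit, or 2-fold, above the starting mean in each genotype. That condition was met by 208 of 22746 probe sets, against 449 with such a difference in the wild type (1.97%) and 237 in pifq (1.04%). After 14 probe sets of IAA29, HAT2, GH3.3, WES1, P1R3, TCP15, MCCA, MCCB, IVD, MGL, GI, XTH19, XTH33 and CYP71B26 were set aside by name, 194 members were left. Of these, 79 matched exactly 1 locus (78 loci in all, AT2G30600 having a pair of probe sets), 111 had no gene in the annotation, 3 matched several genes and 1 had a gene ID without a locus. Only 7 had a symbol beyond the locus ID: AKINBETA1, ATL8, ETFQO, FDH, ALDH7B4, SIS and EXLA1. The other named members are given by locus with no role, because the tables used here annotate none, and a gene set aside by name may still be among the unnamed probe sets.

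Plants read the ratio of red to far-red light with phytochromes, photoreceptors that light switches between an active and an inactive form. Active phytochrome leads to the breakdown of PIF proteins, basic helix-loop-helix transcription factors that drive elongation genes. Far-red-rich light, as found under leaves, inactivates phytochrome and lets PIFs accumulate, and the growth change that follows is called shade avoidance. Plants lacking PIF1, PIF3, PIF4 and PIF5 still carry other members of the PIF family.

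Whole seedlings of the wild type, ecotype Columbia (labelled Col-O), and of 1 pifq line were compared in 5 light conditions. All seeds had received 1.5 h of white light after imbibition. They were then kept for 5 days at 4 °C in darkness and grown at 21 °C, on medium free of sucrose, for 2 days under white light of 19 µmol/m2/s with a red to far-red ratio of 6.48. The start of the treatment (WL0) was followed by 1 h (FR1), 3 h (FR3) or 24 h (FR24) of white light with far-red added, at a ratio of 0.006, or by 24 h more of unchanged white light (WL24). Each of the 10 groups held 3 biological replicates with 1 array each, so the number of arrays limits the precision. FR1 and FR3 seedlings were older than their WL0 controls, by the length of the exposure, and there the light cannot be told apart from the hours that passed, whereas WL24 seedlings had the age of FR24 seedlings. With a single mutant line, the effect of the mutations cannot be told apart from that of seed stock or background.

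Across the arrays, group replicates correlated at 0.9945 to 0.9983 over all probe sets. The annotation gave a single-gene probe set to 0 of the 4 mutated genes, which left the genotype labels unchecked. The labelled tissue was checked on markers of its parts. The 6 of 8 shoot photosynthesis markers that had a probe set stood at group means between 12.23 and 13.96, and the 3 of 7 root hair markers at 4.24 to 8.62, the lowest value being that of the wild type at WL24. In such bulk RNA, fewer cells of a type and less RNA per cell cannot be told apart.

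Values below are log2 RMA signals, and differences are log2 differences ± SE from a limma fit over all 30 arrays. Because the members were chosen on WL0 and FR3, differences from those groups are given as descriptions, with no test. Tests are given for differences among FR1, FR24 and WL24, with a spread estimated over all 30 arrays, and a probe set was called at a Benjamini-Hochberg adjusted p under 0.05 over all 22746 probe sets.

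At 3 h the chosen differences had a median of 1.58 in the wild type (2.99-fold) and 1.36 in pifq (2.56-fold), with ranges of 1.01 to 5.83 and 1.00 to 4.81. The difference was the larger one in the wild type for 146 members and in pifq for 48, and in 97 members the genotypes lay within 0.25 of each other. AT5G02540 had the largest difference in each genotype, at 57.0-fold in the wild type and 28.1-fold in pifq. The next largest, of unnamed members, were 31.0-fold in the wild type and 15.3-fold in pifq. Its arrays read 4.61, 4.30 and 4.32 at WL0 and 10.16, 10.41 and 10.16 at FR3 in the wild type. In pifq they read 4.28, 4.40 and 4.38 at WL0 and 9.61, 8.86 and 9.03 at FR3, so every FR3 array was far above every WL0 array while pifq stayed below the wild type. Among unnamed members the largest differences, by the mean of both genotypes, belonged to 264524_at (4.22 in the wild type, 3.94 in pifq) and 250971_at (3.97 and 3.77). Among members with 1 locus, AT5G44440, FDH and AT2G39980 lay just inside the threshold. Their smaller difference, that in pifq, was 1.00, 1.01 and 1.03. Some unnamed members lay as near. Just outside lay AT1G10140 (0.99998 in pifq), AT4G38080 (0.991) and AT1G03290 (0.989), so the boundary does not mark a gap.

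**Figure D1:**
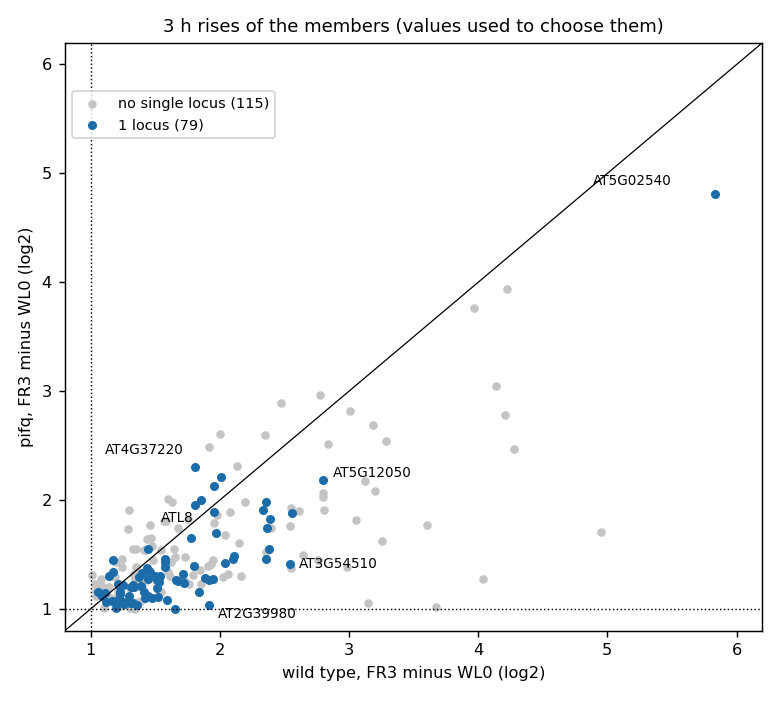
FR3 minus WL0 on the log2 scale in the wild type (x axis) and pifq (y axis) for 194 members, with points for probe sets with 1 locus (79) in blue and the rest in grey, dotted lines at the threshold of 1 and a solid line of equal difference. More members lie below the line (146) than above it (48), and AT5G02540 lies at 5.83 and 4.81; these values chose the members and carry no test.

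On the wild-type arrays the median member signal was 6.43 to 6.52 at WL0, 7.47 to 7.63 at FR1, 8.13 to 8.26 at FR3, 7.97 to 8.04 at FR24 and 7.65 to 7.80 at WL24. In pifq it was 6.07 to 6.27, 6.86 to 7.05, 7.61 to 7.97, 7.87 to 7.99 and 7.44 to 7.52. The pifq arrays thus lay below the wild-type arrays in every condition but FR24, where the genotypes overlapped, and in both genotypes WL24 stood between WL0 and FR24. Without any added far-red, 24 h in white light went with a median difference over WL0 of 1.14 in the wild type (184 of 194 members above 0) and 1.04 in pifq (175 above 0), against 0.02 and 0.06 over all probe sets. The choice of members favours probe sets that were low on the WL0 arrays, so this difference is a description too. The wild-type mean was highest at FR3 for 92 members, at FR24 for 64, at WL24 for 20 and at FR1 for 18. In pifq it was highest at FR24 for 88, at FR3 for 82, at WL24 for 17 and at FR1 for 7.

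**Figure D2:**
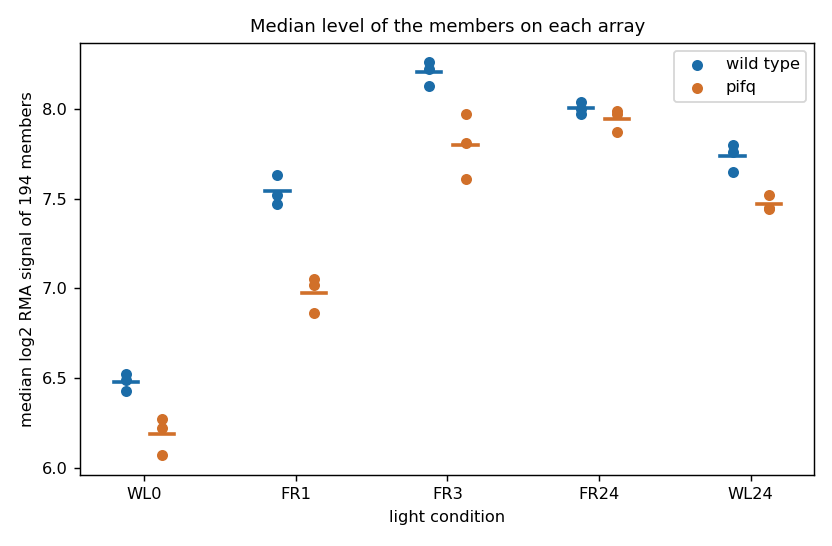
Median log2 RMA signal of the 194 members on each array (points) with the mean of the 3 array medians (bars), by light condition, in the wild type (blue) and pifq (orange). The members stand at 6.07 to 6.52 at WL0 and at 7.61 to 8.26 at FR3, and pifq lies below the wild type except at FR24.

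By 1 h the members had covered a median of 52.5% of their 3 h log2 difference in the wild type and 39.7% in pifq. The median 1 h difference from WL0 was 0.77 in the wild type and 0.53 in pifq, and it reached 2-fold for 69 and 42 members, where 0.58% and 0.242% of all probe sets did. Some members were already at or past their 3 h difference at 1 h, 20 in the wild type and 9 in pifq. In 37 and 50 members under 25% of it was present. AT5G12050 was of the first kind, 3.19 above WL0 at 1 h and 2.80 at 3 h in the wild type, and AT2G37870 of the second, at 0.31 and 2.36. These 1 h values share their WL0 arrays with the choice of members and are given as a description.

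At 1 h the members stood lower in pifq than in the wild type. The difference is taken between FR1 arrays alone, none of which chose the members, while its spread comes from all 30 arrays. In a fit of the FR1 arrays alone 121 members were lower and 0 higher. Of 194 members 123 were called lower in pifq (63.4%) and 0 higher, where the background over all probe sets was 6.56% lower and 7.08% higher. At an unadjusted p under 0.05 limma gave 0 members higher, and with array weights 1 was called higher. In all, 181 members lay below 0 and 13 above. Without a model, all 3 pifq arrays lay below all 3 wild-type arrays in 131 members (background 13.8%) and above them in 1 (background 15.3%). The median difference was -0.46, against 0.01 over all probe sets. At WL0 the members' median difference between genotypes was -0.21 (159 of 194 below 0), which is a description because those arrays chose the members. AT3G16800 had one of the largest differences among named members. Its arrays read 6.78, 6.66 and 7.01 in the wild type at FR1 and 5.36, 5.39 and 5.46 in pifq, a difference of -1.42 ± 0.09 (limma adjusted p = 3.09e-12), and the groups were far apart. AT1G69570, at -1.47 ± 0.13, and AT4G23870, at -1.37 ± 0.12, were also called.

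The members with a symbol were not alike in this respect. SIS, a gene named for induction by salt and a serine-rich product, showed the widest gap of the 7, with arrays at 10.19, 10.02 and 9.90 in the wild type at FR1 and 8.95, 9.16 and 9.22 in pifq (difference -0.93 ± 0.10, limma adjusted p = 2.51e-07). ATL8, which encodes a RING-type ubiquitin ligase, was at 5.30, 5.49 and 5.83 against 5.03, 4.82 and 4.65 (-0.71 ± 0.15, adjusted p = 0.0016 by limma). EXLA1, which encodes an expansin-like protein related to cell wall loosening proteins, differed by -0.65 ± 0.11, and ALDH7B4, an aldehyde dehydrogenase gene, by -0.49 ± 0.09, both called and with no overlap between the groups. ETFQO, whose product passes electrons from the mitochondrial breakdown of leucine and other amino acids to ubiquinone, was called at -0.32 ± 0.10 (adjusted p = 0.0334 by limma), a call that ended without any 1 of 5 of the 6 arrays compared (adjusted p up to 0.174). AKINBETA1, which encodes a beta subunit of the energy-sensing kinase SnRK1, was not called, at -0.03 ± 0.11, and its arrays overlapped, at 9.11, 9.33 and 9.75 in the wild type and 9.20, 9.41 and 9.49 in pifq. FDH, the mitochondrial formate dehydrogenase gene, was not called either, at -0.19 ± 0.11, with 8.08, 8.27 and 8.74 against 8.06, 8.24 and 8.22. The called genes already stood lower in pifq at WL0. Wild-type and pifq means there were 6.96 and 6.65 for ETFQO, 4.96 and 4.28 for ATL8 and 6.61 and 6.15 for EXLA1. For ALDH7B4 they were 9.56 and 9.29, and for SIS 8.94 and 8.6. The FR1 difference from WL0 was 0.771 and 0.759 for ETFQO and 0.579 and 0.555 for ATL8. It was larger in the wild type for EXLA1, ALDH7B4 and SIS. The WL0 arrays chose the members, so these values are a description.

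The genotype difference was narrower on the third day. At WL24, 64 members were called lower in pifq (33.0%, background 4.3%) and 2 higher (background 4.3%), with a median difference of -0.23. AT4G27280, AT5G12050 and AT1G12080 were the lowest named members there, at -1.32 ± 0.14, -1.32 ± 0.16 and -1.26 ± 0.13, and AT3G62950 was the only named one higher, by 0.83 ± 0.14. At FR24, 40 members were called lower in pifq (20.6%, background 3.85%) and 24 higher (12.4%, background 4.47%), with a median of -0.09. The FR24 count of higher members was 15 without pifq FR24 replicate 1. AT5G01740 was the lowest named member, at 9.23, 9.24 and 9.19 in pifq against 10.29, 10.47 and 10.32 in the wild type (-1.14 ± 0.12). AT4G25580 and EXLA1 were also lower, at -0.69 ± 0.15 and -0.69 ± 0.11, while AT5G02540 stood 1.30 ± 0.17, AT1G43590 1.16 ± 0.17 and AT5G62280 1.05 ± 0.10 higher in pifq. These 3 comparisons share no array. Of the 123 members lower at FR1, 55 were also lower at WL24 (44.7% of the FR1 list, 85.9% of the WL24 list) and 31 at FR24 (25.2% and 77.5%). Over all probe sets the shares were 21.7% and 33.1%, and 13.1% and 22.3%. In all, 19 members (9.79%, against 0.374% of all probe sets) were lower in pifq in every one of these conditions, EXLA1 among them, and 54 (27.8%, against 87.9%) in none.

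**Figure D3:**
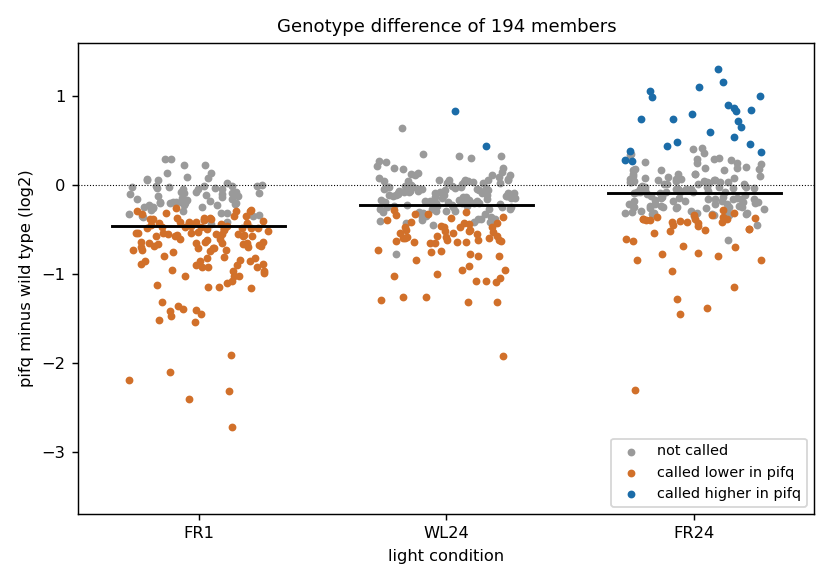
pifq minus wild type (log2, y axis) for each of 194 members at FR1, WL24 and FR24, with members called lower in pifq in orange, called higher in blue and not called in grey, and the median as a bar. The medians are -0.46, -0.23 and -0.09, and members called higher number 0, 2 and 24.

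Root hair markers differed between genotypes the other way at FR1 and WL24, but at FR24 0 were called (median -0.02). All 3 with a probe set, EXPA7, EXPA18 and XTH26, were called higher in pifq at FR1 and at WL24. Their summed linear signal was 495 to 551 in the wild type and 683 to 740 in pifq at FR1. At WL0 it was 678 to 745 and 740 to 917. The shoot photosynthesis markers summed to 54674 to 60050 and 54836 to 55229, with 1 of 6 called lower. Whether tissue make-up had a part in the members' genotype difference was not tested.

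After 24 h of far-red light, against white light of the same length, members were called in both directions. For this comparison, rose and fell mean FR24 above or below WL24 in separate seedlings of the same age, not a course in time. In the wild type 73 members rose (37.6%, background 11.6%), 47 fell (24.2%, background 11.6%) and 74 were not called, with a median of 0.14. In pifq 87 rose (44.8%, background 7.6%) and 17 fell (8.76%, background 7.25%), with a median of 0.32. These differences use no array that chose the members, and the genotypes share none. Of the members that rose, 60 did so in both genotypes, which is 82.2% of the wild-type list and 69.0% of the pifq list, where the same shares over all probe sets were 41.0% and 62.7%. Of those that fell 13 were shared, 27.7% and 76.5%, beside 32.5% and 52.1% over all probe sets. In 10 members (5.15%) the wild type fell while pifq rose, as in 0.136% of all probe sets, and in 0 the reverse was called (0.0615% of all). Root hair markers too were higher at FR24 than at WL24, with 3 of 3 called in each genotype. In the wild type their summed linear signal was 159 to 191 at WL24 and 285 to 345 at FR24. In pifq it was 233 to 277 and 314 to 331. At 3 h their median difference from WL0 was -0.97 in the wild type and -0.7 in pifq, opposite to the members. The part of these markers in the members' 24 h response was not tested.

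AKINBETA1 and ETFQO were among the shared rises. AKINBETA1 read 9.82, 9.80 and 9.93 at WL24 and 10.27, 10.28 and 10.51 at FR24 in the wild type (0.50 ± 0.11), and 9.73, 9.67 and 9.85 against 10.24, 10.19 and 10.27 in pifq (0.49 ± 0.11), with no overlap in either. ETFQO rose by 0.43 ± 0.10 and 0.62 ± 0.10, and EXLA1 by 0.91 ± 0.11 and 0.79 ± 0.11. ATL8 was called in the wild type alone, at 5.74, 5.77 and 5.90 against 6.32, 5.92 and 6.65 (0.49 ± 0.15). That call ended without WT FR24 replicate 3 (0.32, limma adjusted p = 0.156), and the difference between genotypes was not called (-0.48 ± 0.21, limma adjusted p = 0.218). SIS fell in both, by 0.55 ± 0.10 and by 0.50 ± 0.10. Its wild-type arrays read 10.03, 10.08 and 9.68 at WL24 and 9.51, 9.26 and 9.37 at FR24, still above the WL0 mean of 8.94. FDH (0.01 ± 0.11 and -0.10 ± 0.11) and ALDH7B4 (0.10 ± 0.09 and 0.03 ± 0.09) were not called in either genotype.

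**Figure D4:**
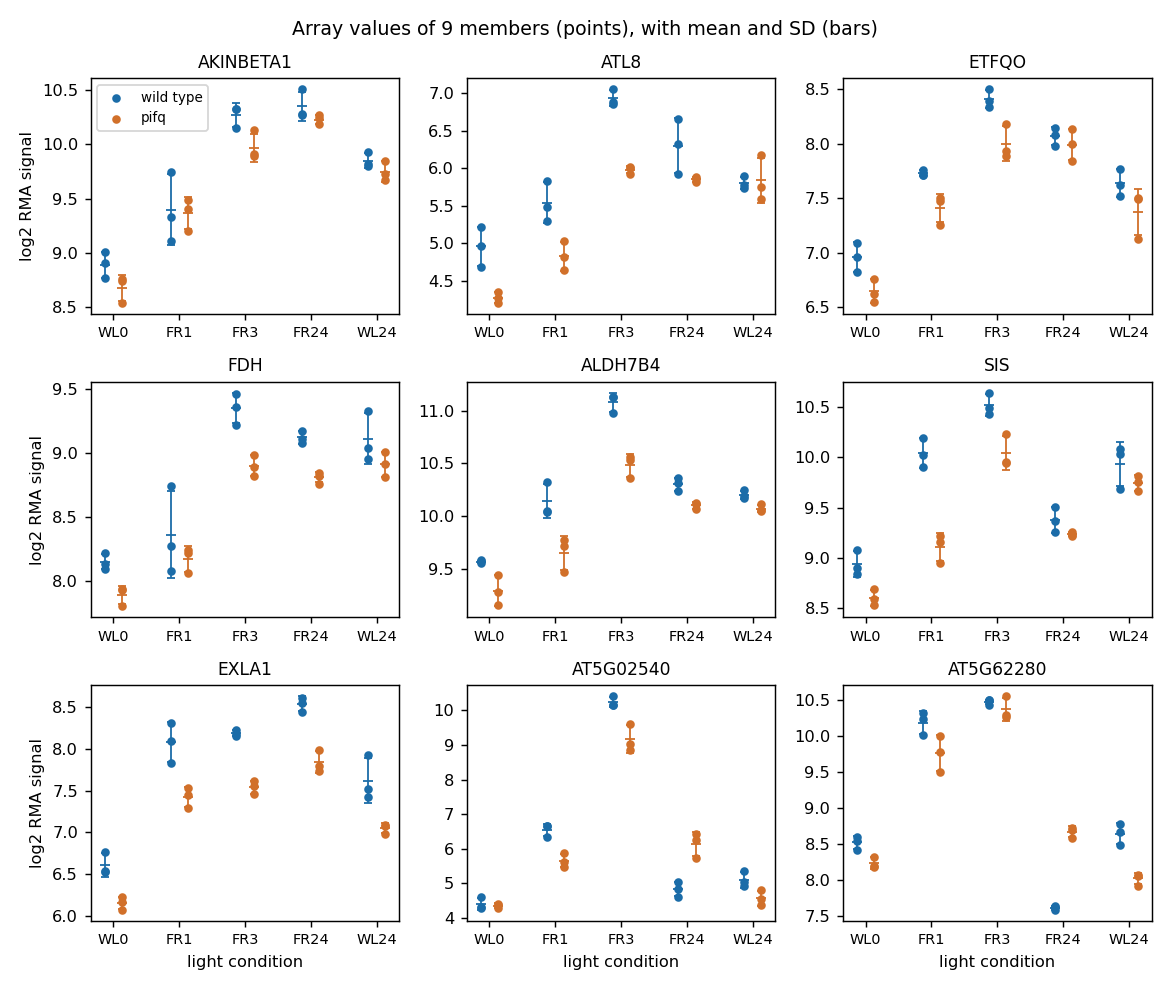
Log2 RMA signal of 9 members on every array (points) with mean and SD (bars, n = 3 arrays) by light condition, in the wild type (blue) and pifq (orange). SIS at FR1 and EXLA1 in every condition lie lower in pifq, and AT5G02540 and AT5G62280 at FR24 lie higher in pifq.

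Among loci without a symbol, the largest wild-type rises at 24 h were those of AT2G30600, AT1G21680, AT1G69570 and AT3G62950. The pair of AT2G30600 probe sets gave close values, 1.52 ± 0.11 and 1.39 ± 0.09 in the wild type and 0.98 ± 0.11 and 0.97 ± 0.09 in pifq. AT1G21680 read 6.72, 7.08 and 7.18 at WL24 and 8.36, 8.42 and 8.60 at FR24 in the wild type, 2.77-fold higher, and was 2.07-fold higher in pifq. AT1G69570 was 2.60-fold and 3.02-fold higher. Its pifq rise was among the 5 largest there, with AT5G12050 (4.15-fold), AT3G13980 (3.24-fold), AT5G02540 (2.96-fold) and AT3G50400 (2.31-fold). The deepest fall was that of AT1G66100, with 7.51, 7.61 and 7.88 at WL24 and 5.38, 5.62 and 5.68 at FR24 in the wild type (-2.11 ± 0.19). In pifq it fell by 1.43 ± 0.19. AT1G12080, AT5G50335, AT4G09890 and AT5G62280 followed in the wild type, with falls of 1.32, 1.20, 1.07 and 1.03. In pifq AT1G21520 fell by 1.00 ± 0.23, AT3G54510 by 0.46 ± 0.11 and AT4G23870 by 0.40 ± 0.12. The AT3G54510 call in pifq ended without pifq FR24 replicate 2 (adjusted p = 0.0514 by limma), and that of AT4G23870 without pifq FR24 replicate 1 (0.118) or pifq WL24 replicate 2 (0.0836). The largest 24 h rise of all belonged to a member with no gene in the annotation, 3.41 in the wild type and 3.38 in pifq.

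The 24 h response itself differed between genotypes for 39 members by the interaction term of the fit. It was more positive in pifq for 35 (18.0%, background 2.22%) and less positive for 4 (2.06%, background 1.53%). Of the 35, 28 were called lower in pifq at WL24 and 18 higher in pifq at FR24. The interaction term is the FR24 genotype difference minus the WL24 one, on the same arrays. These 2 counts therefore follow in part from its definition, and the matching shares over all probe sets are not given here. A more positive response can thus come from a lower WL24 level, a higher FR24 level or both. The count of 4 was 2 without WT FR24 replicate 2, 1 without pifq FR24 replicate 2 and 2 without pifq WL24 replicate 2. AT5G62280 was the clearest of the named ones. In the wild type it read 8.49, 8.68 and 8.78 at WL24 and 7.59, 7.63 and 7.65 at FR24. In pifq it read 8.06, 7.93 and 8.08 at WL24 and 8.73, 8.70 and 8.59 at FR24. It thus fell in 1 genotype and rose in the other with no overlap in either, and the difference of responses was 1.68 ± 0.14 (limma adjusted p = 5.27e-09). AT5G02540, the member with the largest 3 h difference, was back at 4.83, 5.03 and 4.62 at FR24 in the wild type, overlapping WL24 at 4.92, 5.35 and 5.04. In pifq it was still at 6.42, 6.24 and 5.74 against 4.80, 4.54 and 4.36 (difference of responses 1.84 ± 0.23, adjusted p = 6.36e-06 by limma). AT5G12050 (1.58 ± 0.23) and AT4G09890 (1.21 ± 0.20) followed. In the other direction AT3G62950 differed by -0.80 ± 0.19 and AT2G23840 by -0.52 ± 0.14. The call for AT3G62950 ended without pifq FR24 replicate 2 (adjusted p = 0.0556 by limma) or pifq WL24 replicate 2 (0.0506), and that for AT2G23840 without any 1 of 5 of the 12 arrays (adjusted p up to 0.0675).

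**Figure D5:**
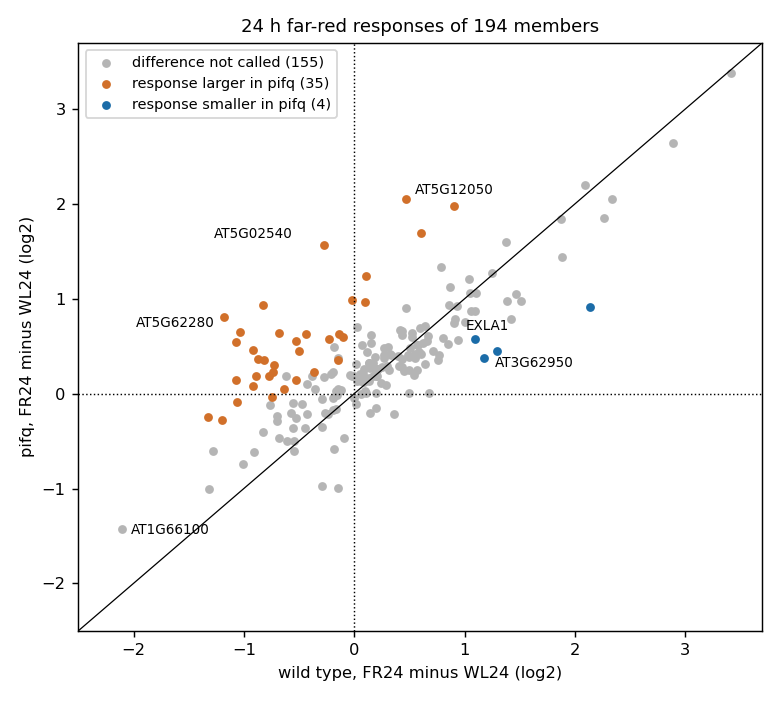
FR24 minus WL24 (log2) in the wild type (x axis) and pifq (y axis) for 194 members, with a solid line of equal response. Orange points are the 35 members whose response was more positive in pifq, blue the 4 whose response was less positive and grey the 155 with no called difference.

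The members' earlier behaviour was set beside their 24 h class in the wild type as a description. The 73 that rose at 24 h had a median 3 h difference of 1.73 in the wild type and the 47 that fell one of 1.58. At 1 h the medians were 0.74 and 1.03 above WL0. The share called lower in pifq at FR1 was 54.8% of those that rose, 59.5% of the 74 not called and 83.0% of those that fell. Matching shares over all probe sets are not given here, so this order is not read as particular to the members.

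Between FR1 and FR24, both under far-red light, 115 members rose in the wild type (59.3%, background 21.2%) and 58 fell (29.9%, background 21.4%). In pifq 131 rose (67.5%, background 20.8%) and 28 fell (14.4%, background 22.3%). The seedlings were 23 h older at FR24, so age and length of exposure cannot be told apart. AT5G13900 was 7.84-fold higher at FR24 than at FR1 in the wild type and 10.7-fold higher in pifq. Its FR24 level was not called different from WL24 in either genotype (0.18 ± 0.17 and 0.38 ± 0.17). AT2G37870 behaved likewise between those times, 6.54-fold and 8.41-fold higher, but fell by 0.70 ± 0.15 against WL24 in the wild type. AT4G37220, whose 3 h difference was larger in pifq (4.94-fold) than in the wild type (3.51-fold), was 2.09-fold and 2.93-fold higher at FR24 than at FR1. AT5G62280 and AT5G50335 went down, 5.94-fold and 7.13-fold lower at FR24 in the wild type and 2.14-fold and 1.81-fold lower in pifq. AT1G02660 fell by 0.68 ± 0.11 in the wild type and was not called in pifq (-0.24 ± 0.11).

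The members were also read against pathway lists. Carbon starvation genes are those that plants turn on when sugar runs short, under the control of SnRK1 among others. Of 27 listed, 6 had a probe set of their own, and 4 of these were members: AKINBETA1, ATL8, ETFQO and AT3G15450. Among all 22746 probe sets 194 were members. The list was chosen with earlier results of these data known, so this count is a description and no test of enrichment. At 24 h, 5 of the 6 rose and 0 fell in the wild type (median 0.46), and 3 rose and 0 fell in pifq (median 0.29), beside medians of 0.00 and -0.03 over all probe sets. Of all probe sets 11.6% rose and 11.6% fell in the wild type, and 7.6% and 7.25% in pifq. AT3G15450, among the brightest members, read 11.94, 11.98 and 11.58 at WL24 and 12.47, 12.36 and 12.44 at FR24 in the wild type (0.59 ± 0.10). In pifq it rose by 0.44 ± 0.10. D2HGDH, the fifth to rise, was no member. Of 14 listed genes for the breakdown of branched-chain amino acids 7 had a probe set, of which ETFQO is a member and 3 had been set aside by name. In the wild type 6 rose and 0 fell at 24 h (median 0.43), with ALDH6B2, which is no member, at 1.04 ± 0.10, and in pifq 3 rose and 1 fell. ETFQO and D2HGDH are on both this list and the carbon starvation list, so the counts of the lists are not separate.

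Other lists held 0 members. The shade response list had 3 of 20 genes with a probe set, 2 of them set aside by name, and at FR1 all 3 were lower in pifq. The auxin response list had 8 of 41, 3 set aside, with 0 higher and 4 lower in pifq at FR1. IAA29 is on both of these lists. Over all probe sets 6.56% were lower and 7.08% higher in pifq at FR1. All 9 listed genes of the ATG8 autophagy family, whose products mark the membranes that enclose material for breakdown, had a probe set. Their 3 h differences were 0.20 to 0.99 in the wild type and 0.08 to 0.92 in pifq, just under the threshold for ATG8E, and 5 of 9 were lower in pifq at FR1. The clock (3 of 17), light signalling (2 of 14), gibberellin and brassinosteroid (3 of 17) and cytokinin and ethylene (3 of 10) lists each had few genes to read. Over all probe sets 11.6% rose and 11.6% fell at 24 h in the wild type, and 7.6% and 7.25% in pifq. All 3 clock genes rose at 24 h in both genotypes. GI, 1 of these 3, met the 3 h threshold (1.72 in the wild type, 1.64 in pifq) and had been set aside by name. Of the light signalling genes 0 rose and 1 fell in each genotype at 24 h. Of the gibberellin and brassinosteroid genes 2 rose in the wild type and 1 in pifq, with 0 falls. Of the cytokinin and ethylene genes 1 rose and 1 fell in the wild type, and 0 rose and 2 fell in pifq. On chromosomes 1 to 5 the 78 loci numbered 22, 14, 17, 8 and 17, with 0 pairs of neighbouring protein-coding genes.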

How the data were processed

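The authors deposited log2 expression values. RMA is the method that the submitters' processing notes name, without a version; it corrects background, quantile-normalizes the arrays and summarises probes. Quantile normalization hides a shift of most transcripts one way, and RMA compresses folds of dim and bright probe sets. The values ran from 2.42 to 14.16, with array medians of 5.55 to 5.64. Of 22810 probe sets 64 controls were left out. Gene names came from GEO's platform annotation, matched by gene ID to the RefSeq table of TAIR10.1 (13436 probe sets with 1 locus, 59.1%). Symbols were matched to set genes aside, and EXLA1, whose symbol is not of the EXP form, was kept. No sequence of promoters or proteins was used here, so the planned motif search was not run.

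The 30 arrays were fitted with group means in limma 3.58.1 (lmFit, eBayes) in R 4.3.3, and was tested on simulated data. Tests are reported for 8 comparisons, 0 of them a difference from WL0 or FR3, though the WL0 and FR3 arrays add to the residual variance. P-values are two-sided. The members, lists and tests were chosen with earlier results of these data known. Genes were named by a fixed rule: members with 1 locus that have a symbol, stand among the 10 largest 3 h differences, the 5 largest calls per direction in a 24 h response, the 4 in the difference of responses or the 3 in a genotype comparison, lie next to the threshold or are on a list. For a 24 h response only calls without overlap between the groups were eligible, so non-overlap of genes named that way follows from the rule. The 2 probe sets given by ID were chosen after their values were seen. Where a gene on a list had several probe sets, the one of highest mean was read.

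Replicates were grown and processed separately, per the series' design text. Replicate numbers are shared between groups. Deviations of same-numbered arrays from other groups correlated at -0.21 to 0.28 (median 0.01). Of the 30 arrays, 16 correlated best with an array of their own number. The arrays were treated as unpaired, and these correlations cannot exclude a shared effect of the replicate number. Alternatives were the arrays compared only, a trended robust prior, array weights, a filter at a mean of 5, repeated quantile normalization, the replicate block, leaving out each array, and a lower and a higher threshold for the members.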

Additional observations from a re-analysis of the deposited data

Results flagged for a closer look

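The 24 h response to far-red light was compared between pifq and the wild type by limma's interaction term. The difference (pifq minus wild type) was positive for 35 members (18.0%, background 2.22%). It was negative for 4 members (2.06%, background 1.53%), which is near the background share. The named members among them are given here by that difference on the log2 scale. Positive differences were 1.84 for AT5G02540, 1.68 for AT5G62280, 1.58 for AT5G12050, 1.21 for AT4G09890, 1.09 for AT3G13980, 1.08 for AT1G12080, 1.06 for AT4G27280 and 0.92 for AT5G50335. Negative differences were -0.52 for AT2G23840 and -0.80 for AT3G62950, and each of these calls ended without some single arrays. AT4G27280 fell in the wild type (-0.43 ± 0.14) and rose in pifq (0.62 ± 0.14). AT3G13980 rose in both, by 0.61 ± 0.12 and 1.70 ± 0.12, and AT1G12080 and AT5G50335 fell in the wild type and were not called in pifq. AT3G13980, AT1G12080, AT4G27280 and AT5G12050 were lower in pifq at WL24 (-1.05, -1.26, -1.32 and -1.32). At FR24 these genes were not called different between genotypes. AT4G09890 and AT5G50335 were called higher in pifq at FR24 and not called at WL24. AT5G02540 and AT5G62280 were called in both conditions, lower at WL24 and higher at FR24. Results marked in this way rest on a test of the difference itself, and the reasons for the differences were not tested.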

How the results depend on the processing

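Every comparison was repeated under 6 other settings and without each array. The count of members whose 24 h response was less positive in pifq, 4, became 8 with a trended robust prior, 8 with a filter at mean 5 and 7 after repeated quantile normalization, and 1 to 6 without 1 array. It was 2 without WT FR24 replicate 2, 1 without pifq FR24 replicate 2 and 2 without pifq WL24 replicate 2. Members higher in pifq at FR1 numbered 1 with array weights, against 0. Members higher in pifq at FR24, 24, numbered 15 to 22 without 1 array. The number of members was 311 at a lower threshold (1.74-fold), 123 at a higher one (2.38-fold), 79 with exactly 1 locus and 176 to 203 without 1 array. The other counts stayed within 1.5 times: 104 to 123 members were lower in pifq at FR1 without 1 array. With the replicate number as a block, 123 members were lower in pifq at FR1, 64 at WL24 and 40 at FR24, 73 rose and 47 fell in the wild type at 24 h, 87 and 17 in pifq, and 36 and 4 differed in response; the block ended or moved no count by 1.5 times. Of 473 repeats for named members under the other settings, 469 kept their side of the threshold, 4 passed it newly and 0 reversed. Of 552 repeats without 1 array 16 lost the call, 1 gained it and 0 reversed. The causes were not tested. Probe sets near background, with only 3 arrays a group, limit what small differences can be seen. The motif shares were not run.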
